A study of Drosophila melanogaster with 6 samples.

Results

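Messenger RNA from adult progeny of the fruit fly (Drosophila melanogaster) was examined for 9 genes of oocyte polarity and germ plasm, osk, nos, bcd, grk, vas, tud, orb, gcl and stau. Rows were picked by gene symbol from a list drawn up with earlier results of these data known, and all 9 had a row among the 15010 genes of the table. All 6 libraries of polyadenylated RNA carried intestine as their tissue label. In the control group were 3 libraries from offspring of MTD-GAL4/+ mothers, and in the InR-DN group 3 from offspring of MTD-GAL4/InR-DN mothers. MTD-GAL4 drives expression in the female germline, and InR-DN is a dominant-negative form of the insulin receptor. Mothers of both groups carried MTD-GAL4 and were mated to OregonR males, and the libraries were compared to ask what metabolic stress of the mother does to the gut of her offspring. Progeny of either cross can inherit the maternal transgenes, so an effect through the maternal germline and an effect of an inherited transgene cannot be told apart. The labels give no age or sex of the progeny and no origin of the replicates, so a p-value reflects no more than how these libraries vary, which may be technical.

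The body axes of the fly are laid down in the egg by messenger RNAs that nurse cells make and the oocyte localizes. At the posterior pole Oskar protein assembles the germ plasm, which later instructs the germ cells, while bcd RNA is held at the anterior pole and Gurken signals to the follicle cells on one side of the oocyte. These transcripts are textbook products of the ovary, and stau and orb are also known from neurons.

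Markers of several body parts were present in every library. The summed level of 10 enterocyte genes of the gut ran from 15025 to 22107 TPM (transcripts of a gene, corrected for its length, on a scale with the same total in every library), that of 3 yolk protein genes from 11997 to 16474 TPM, and that of 10 photoreceptor genes from 3796 to 5216 TPM. The summed level of the 9 genes ran from 1440 to 1697 TPM. The libraries are therefore described by their labels, and the values below are not taken as levels in intestine alone. In such bulk RNA, fewer cells of a type and less RNA per cell cannot be told apart. Between 32058056 and 42641950 reads per library could be recovered from the table.

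For none of the 9 genes was a difference called between the InR-DN group and controls. Their log2 fold changes on the log2(TPM + 1) scale lay between -0.03 and 0.06, with 6 above and 3 below 0. Among all genes tested, 5901 lay above and 4915 below 0. The median was 0.03 for the 9 beside 0.01 for all genes tested. Under quantile normalization osk, bcd and stau were at 0 to 2 decimals. All 9 passed the filter of at least 1 TPM in at least 3 libraries, and none passed limma at an adjusted p of 0.05 (adjusted p = 1.00 for each, Benjamini-Hochberg over 10816 genes). Of all genes tested, 0% passed, and 3.15% had an unadjusted p under 0.05, which none of the 9 had. The groups overlapped for each of the 9, whereas 6.36% of all genes tested had groups that did not overlap. The genes differed in how much they varied between libraries. The spread was widest for bcd, in both groups, and was wide in the InR-DN group for nos and gcl.

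**Figure D1:**
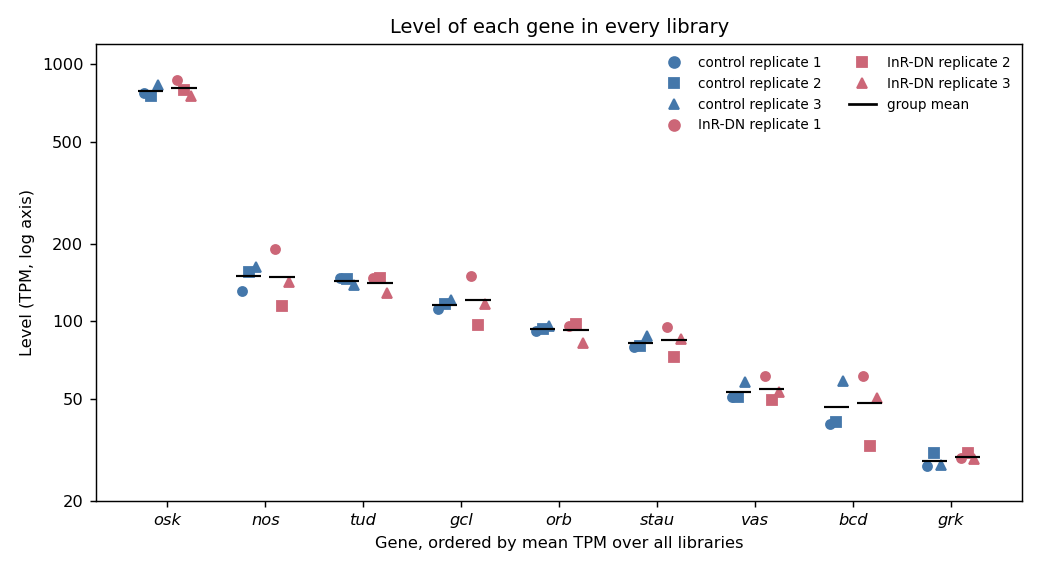
Level of each gene in TPM on a log axis, with 1 point per library (3 control, 3 InR-DN; marker shape gives the replicate) and a black line at each group mean. osk lies far above the other genes, the groups overlap for every gene, and InR-DN replicates 1 and 2 lie far apart for nos, gcl and bcd.

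The germ plasm organizer osk (FBgn0003015; arm 3R, 8935126 to 8938395, plus strand, in the BDGP6.54 annotation) was by far the most abundant of the 9, ranking number 165 of all genes by mean TPM. It lay at 776.0, 751.5 and 834.5 TPM in control replicates 1 to 3 and at 866.5, 798.0 and 754.8 TPM in InR-DN replicates 1 to 3. The highest library was an InR-DN one and the lowest a control, but InR-DN replicate 3 lay below 2 controls, and the whole range was only 1.15-fold. The means were 787 ± 42.7 TPM in controls and 806 ± 56.3 TPM in the InR-DN group (SD, n = 3 per group). The log2 fold change was 0.03 with a standard error of 0.07 and a 95% interval of -0.15 to 0.21 in limma. A noncoding transcript annotated as lncRNA:osk shares 2251 of the 2869 exon bases of osk on the same strand and was found under no row, so its reads may be part of the osk row. Between 38235 and 55511 reads stood behind each value, so counting error was small, at a coefficient of variation (CV, the SD as a percentage of the mean) of 0.462% against 5.76% observed over the 6 libraries.

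Vasa is a DEAD-box RNA helicase and Tudor a scaffold with many Tudor domains, and both are components of the polar granules that Oskar recruits. vas (FBgn0283442; arm 2L, 15061656 to 15074311, plus strand) lay at 50.7, 50.75 and 58.03 TPM in control replicates 1 to 3 and at 60.96, 49.4 and 53.22 TPM in InR-DN replicates 1 to 3. Both the highest and the lowest vas value came from the InR-DN group, with a log2 fold change of 0.03 (95% interval -0.21 to 0.28). The vas row needs care as a level. The shortest gene length found to give whole reads for it was 5131 bases, and the 2285 exon bases of the current annotation did not give them. The neighbouring gene solo shares 563 exon bases with vas on the same strand and was found under no row, and vas and solo together cover 5059 exon bases, 72 fewer than the length found. Reads of solo may therefore be part of the vas row. If all of its reads came from the current vas exons, the level would be 2.25 times as high, at 111 to 137 TPM. This scaling is the same in every library and leaves the fold change between groups as it is apart from the pseudocount.

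tud (FBgn0003891; arm 2R, 21183322 to 21192913, plus strand) was among the steadiest of the 9. It lay at 147.5, 145.6 and 138.5 TPM in control replicates 1 to 3 and at 147.6, 146.9 and 128.6 TPM in InR-DN replicates 1 to 3. In 4 libraries it was between 145.6 and 147.6 TPM, and the lowest value was that of InR-DN replicate 3. The log2 fold change was -0.03 with a 95% interval of -0.21 to 0.15.

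gcl (FBgn0005695; arm 2R, 8724258 to 8728999, plus strand) encodes a BTB-domain protein needed to form the pole cells, the germ cell precursors. It lay at 111.5, 116.2 and 120.5 TPM in control replicates 1 to 3 and at 149.7, 97.0 and 116.3 TPM in InR-DN replicates 1 to 3. The InR-DN libraries enclosed all controls, with 1 above and 1 below them. The CV was 3.88% in controls and 22.0% in the InR-DN group (n = 3 each), a difference in spread that was not tested. The log2 fold change was 0.04 with a 95% interval of -0.32 to 0.40.

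nos and bcd encode the regulators at opposite ends of the embryo: Nanos is a translational repressor needed for the abdomen and the germ line, and Bicoid is a homeodomain transcription factor of the head and thorax. nos (FBgn0002962, named nanos in the annotation; arm 3R, 19157238 to 19160202, plus strand) lay at 130.6, 155.1 and 162.5 TPM in control replicates 1 to 3 and at 190.2, 114.9 and 142.3 TPM in InR-DN replicates 1 to 3. As for gcl, the controls fell inside the range of the InR-DN group. The means were 149 ± 16.7 TPM in controls and 149 ± 38.1 TPM in the InR-DN group (SD, n = 3 per group), and the log2 fold change was -0.03 with a standard error of 0.19 and a 95% interval of -0.47 to 0.41. The symbol is case-sensitive: the nitric oxide synthase gene Nos is another row, at 1.51 to 2.10 TPM.

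bcd (FBgn0000166; arm 3R, 6755842 to 6759466, minus strand) varied most of the 9. It lay at 39.98, 40.6 and 58.59 TPM in control replicates 1 to 3 and at 61.47, 32.58 and 50.07 TPM in InR-DN replicates 1 to 3. Control replicate 3 stood with InR-DN replicates 1 and 3 rather than with the other controls. The highest value was 1.89 times the lowest. The CV was 22.8% in controls and 30.3% in the InR-DN group (n = 3 each). Over 6 libraries it was 24.2%, larger than that of 88.4% of all genes tested, against 2.03% from read counting. Its log2 fold change was 0.03 with a standard error of 0.25 and a 95% interval of -0.58 to 0.63, the widest of the 9. The values are thus compatible with a change of bcd of any size within these bounds.

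Gurken is the TGF-alpha ligand by which the oocyte signals to Egfr on the follicle cells. grk (FBgn0001137; arm 2L, 8431086 to 8433598, minus strand) was the least abundant of the 9 and lay at 27.25, 30.64 and 27.54 TPM in control replicates 1 to 3 and at 29.28, 30.81 and 29.04 TPM in InR-DN replicates 1 to 3. All InR-DN values lay above control replicates 1 and 3 and only InR-DN replicate 2 above control replicate 2. Its log2 fold change of 0.06 (standard error 0.08, 95% interval -0.13 to 0.25) was the largest of the 9. Its reads were the fewest, at 869 to 1228 per library, and its counting CV of 3.12% came close to the 5.13% observed. grk shares 212 of its 1718 exon bases with Akap200 on the opposite strand, which averaged 269 TPM in controls and 288 TPM in the InR-DN group. Akap200 had groups that did not overlap, which held for 6.36% of all genes tested. The log2 fold change of Akap200 was 0.10 (95% interval -0.04 to 0.24), in the direction of grk, and did not pass limma (adjusted p = 1.00). The use of strand in counting is unknown here, so reads in the shared bases cannot be told apart. nos likewise shares 269 exon bases with CG11779 and 104 with Nsun5, both on the opposite strand.

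orb and stau encode RNA-binding proteins that act on the messages above. Orb is a cytoplasmic polyadenylation element binding protein that promotes translation of osk and grk, and Staufen binds double-stranded RNA and carries osk to the posterior and anchors bcd at the anterior. orb (FBgn0004882; arm 3R, 23260610 to 23280856, minus strand) lay at 91.32, 92.9 and 95.62 TPM in control replicates 1 to 3 and at 96.23, 97.7 and 82.55 TPM in InR-DN replicates 1 to 3. InR-DN replicates 1 and 2 were the highest and InR-DN replicate 3 the lowest, with a log2 fold change of -0.02 (95% interval -0.22 to 0.18). stau (FBgn0003520; arm 2R, 18117896 to 18125779, minus strand) lay at 79.51, 80.15 and 87.6 TPM in control replicates 1 to 3 and at 95.35, 72.4 and 85.14 TPM in InR-DN replicates 1 to 3. Again the InR-DN libraries enclosed the controls, with a log2 fold change of 0.02 (95% interval -0.24 to 0.29).

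**Figure D2:**
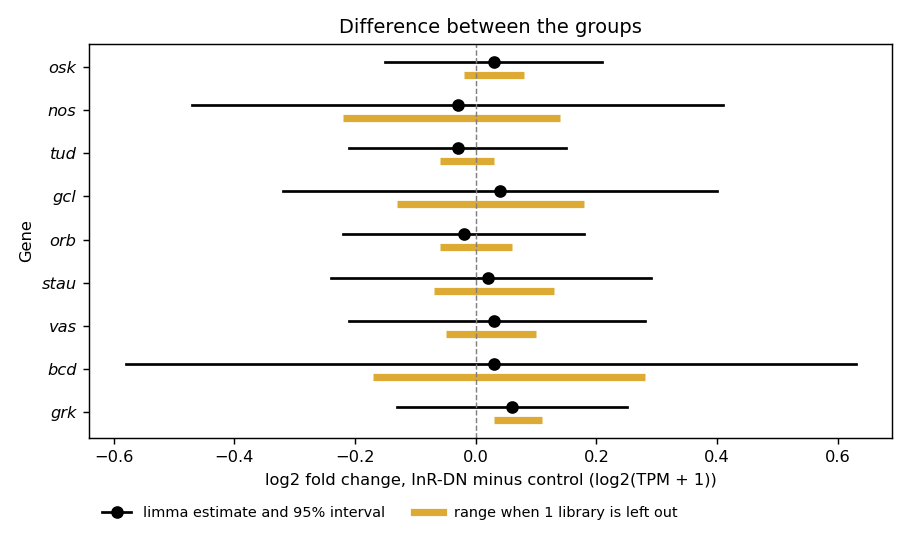
The log2 fold change of each gene (InR-DN minus control, log2(TPM + 1)) as a point with its 95% interval from limma, and as a yellow bar the range of the estimate when 1 of the 6 libraries is left out. Every interval holds 0, and the bars of all genes except grk cross it, most widely for bcd (-0.17 to 0.28) and nos (-0.22 to 0.14).

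Because TPM is a level per length, the 9 genes can be set in order. By mean TPM the order was osk, nos, tud, gcl, orb, stau, vas, bcd and grk. osk stood clear of nos in all 6 libraries, stau clear of vas and bcd clear of grk. The ranges of the other neighbours overlapped: nos exceeded tud in 4 of 6 libraries, tud exceeded gcl in 5, gcl exceeded orb in 5, orb exceeded stau in 5 and vas exceeded bcd in 4. The place of vas also depends on the gene length discussed above. An exact permutation test of each gene over the libraries, two-sided, gave p between 0.3 and 1.0, where 0.1 is the smallest that 3 against 3 libraries allow.

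The 9 genes did not share one profile over the libraries. InR-DN replicate 1 held the highest value of 7 of them, all but grk and orb, and all 9 lay above their own mean there. Of all genes tested, 38.8% were highest in that library. InR-DN replicate 2 held the lowest value of 5, namely bcd, nos, gcl, stau and vas, and of 40.0% of all genes tested. tud and orb were lowest in InR-DN replicate 3, whereas osk and grk were lowest in a control library. In log2 units around its own mean, bcd lay at 0.41 in InR-DN replicate 1 and at -0.49 in InR-DN replicate 2, and osk at 0.12 and 0.00.

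**Figure D3:**
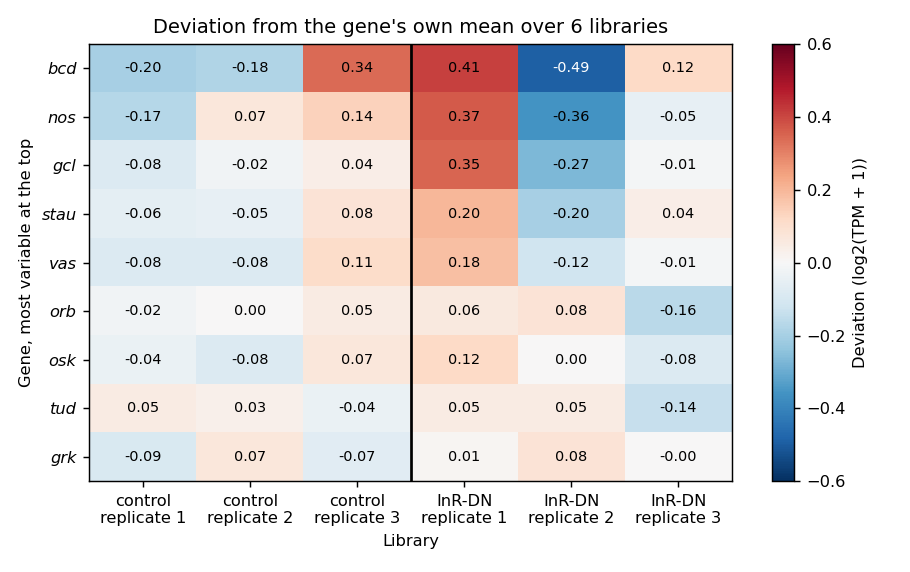
Deviation of each gene (rows, most variable at the top) from its own mean over 6 libraries (columns, 3 control and 3 InR-DN), on the log2(TPM + 1) scale, with red above and blue below the mean. The upper 5 rows are red in InR-DN replicate 1 and blue in InR-DN replicate 2, and the lower 4 rows stay within -0.16 to 0.12.

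This pattern was found across the whole table, but in a larger share of the 9 genes and of the partner genes described below. Of all genes tested, 27.1% had their highest value in InR-DN replicate 1 and their lowest in InR-DN replicate 2. The same held for 5 of the 9 (55.6%) and for 33 of 52 partner genes (63.5%). Rescaling by the median of ratios allows for a shift of most genes in a library. The shares were then 14.7% of all genes, 40.4% of the partner genes and 4 of the 9 (44.4%), since vas then had its lowest value in control replicate 1. On that scale osk and tud were highest in InR-DN replicate 2, and osk was lowest in InR-DN replicate 3. Other markers differed between the same libraries. The summed photoreceptor level was lowest in InR-DN replicate 1 (3796 TPM) and highest in InR-DN replicate 2 (5216 TPM), and the summed enterocyte level was lowest in InR-DN replicate 1, at 15025 TPM against 19205 to 22107 TPM in the other 5. None of the 10 photoreceptor or 10 enterocyte genes was at 0 in all libraries and none passed limma, although the mean of each photoreceptor gene was lower in the InR-DN group (median log2 fold change -0.07). The part of these shifts in the spread of the 9 genes was not tested.

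Ratios within a library show which of the 9 kept step, since a common scale cancels in them. Of 36 pairs, vas to stau was the steadiest, at 0.625 to 0.682, followed by tud to orb at 1.45 to 1.61. The ratio of nos to gcl stayed between 1.17 and 1.35 although each gene alone varied by 1.66-fold and 1.54-fold. The least steady was bcd to grk, which ran from 1.06 in InR-DN replicate 2 to 2.13 in control replicate 3. Relative to osk, nos ran from 14.4% to 21.9% and bcd from 4.08% to 7.09%, with means of 19.0% and 18.4% for nos and of 5.86% and 5.94% for bcd in controls and the InR-DN group. The pairs named were chosen after their values were seen.

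Measured spread exceeded counting error for each of the 9, least for grk. The CV over 6 libraries was 24.2% for bcd, 17.6% for nos, 14.6% for gcl, 9.45% for stau and 8.62% for vas, and 5.13% to 5.92% for grk, tud, osk and orb. The latter 4 were steadier than most of the table, with only 13.5% to 18.6% of all genes tested having a smaller CV. The median CV of all genes tested was 10.6%.

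**Figure D4:**
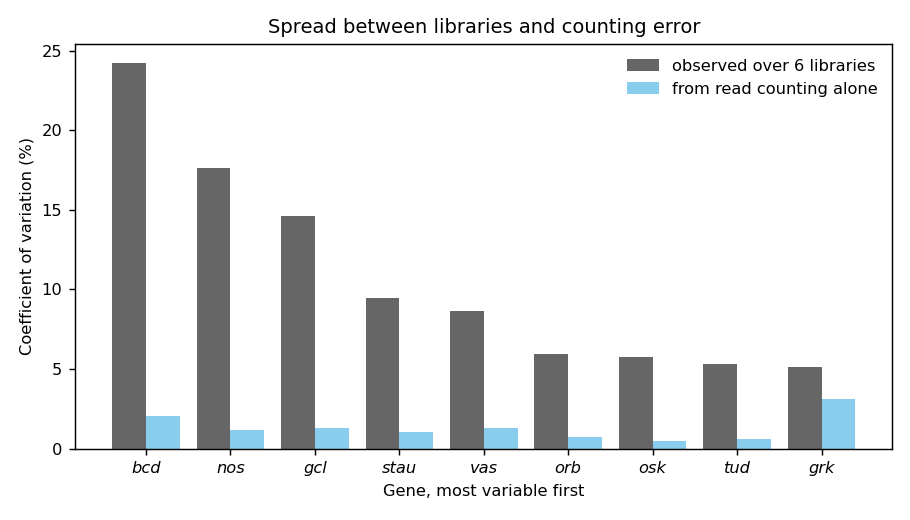
Coefficient of variation in percent over the 6 libraries (grey bars) beside that expected from the number of reads alone (blue bars) for each gene, most variable first. bcd reaches 24.2% against 2.03% from counting, and grk 5.13% against 3.12%.

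The steadiness of osk stood beside a very wide spread of eggshell genes, which are expressed by the follicle cells around the oocyte. The chorion gene Cp36 lay at 0.193, 466.8 and 498.4 TPM in control replicates 1 to 3 and at 445.7, 27.7 and 1.17 TPM in InR-DN replicates 1 to 3. Cp38, another chorion gene, ran from 0.0431 to 456 TPM and was also lowest in control replicate 1. The summed level of 16 eggshell genes ran from 212 to 1847 TPM in controls and from 687 to 1262 TPM in the InR-DN group. Cp36 and Cp38 had log2 fold changes of -1.11 and -0.82, unlike most of the list. Of 14 eggshell genes tested, 10 were higher and 4 lower in the InR-DN group, and none passed limma. Their median log2 fold change was 0.89, with a range of -3.01 to 2.61. Across the same 6 libraries none of the 9 oocyte genes varied by more than 1.89-fold, and control replicate 1, where Cp36 and Cp38 were nearly absent, had osk at 776.0 TPM.

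Partner genes of the same pathways were read from 5 lists, and none of the 52 tested, of 53 listed, passed in either direction. The directions below stand beside 5901 genes higher and 4915 lower in the InR-DN group among all genes tested. Of 16 regulators of osk RNA transport and translation, 12 had a higher and 4 a lower mean in the InR-DN group. Their median log2 fold change was 0.03, with a range of -0.06 to 0.21. The most abundant were me31B, a DEAD-box translational repressor, at 1519 to 2459 TPM, and its partner tral at 609 to 897 TPM. Both were highest in InR-DN replicate 1 and lowest in InR-DN replicate 2. Those with the smallest p were yps (-0.06), a Y-box protein of the osk particle, and BicC (0.21), a translational repressor, with adjusted p = 1.00 in limma.

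Of 12 germ plasm and nuage partners, 9 had a higher and 3 a lower mean, with a median of 0.03. The most abundant were CycB, the mitotic cyclin whose RNA is held in germ plasm, at 1024 to 1528 TPM, and pgc, a repressor of transcription in pole cells, at 204 to 343 TPM. mael, a nuage protein of the piRNA pathway, had the smallest p of this list. It lay at 89.41, 95.69 and 91.65 TPM in control replicates 1 to 3 and at 88.63, 61.18 and 87.31 TPM in InR-DN replicates 1 to 3. The mael groups did not overlap, by a narrow margin, and mael was the only tested partner gene for which this held. Groups did not overlap for 6.36% of all genes tested. The lower mean of mael came mainly from InR-DN replicate 2 (log2 fold change -0.24, 95% interval -0.59 to 0.11). vls, which acts with tud in polar granule assembly, was next at 0.13.

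Of 12 partners of bcd and grk, which included swa and cni and the dorsal pathway downstream of Gurken, 7 had a higher and 5 a lower mean (median 0.01). swa, needed to localize bcd RNA, lay at 186 to 256 TPM, and cni, the cargo receptor that exports Gurken, at 99.2 to 117 TPM with a log2 fold change of 0.09. pip, the sulfotransferase that ventral follicle cells make, lay at 0.259 to 1.84 TPM (-0.19). Of 5 partners of nos, 3 were higher and 2 lower (median 0.05). smg, the repressor of unlocalized nos RNA, lay at 280 to 486 TPM (0.09), the RNA-binding protein gene rin at 229 to 289 TPM (-0.02) and pum, which binds RNA together with Nanos, at 32.6 to 43.2 TPM (-0.06). Of 7 tested orb partners and early germline genes, 4 were higher and 3 lower (median 0.05). wisp, the cytoplasmic poly(A) polymerase, lay at 178 to 272 TPM (0.06), Fmr1, the fly gene of the fragile X protein, at 74.0 to 105 TPM (-0.02) and orb2, the other gene of the orb family, at 9.10 to 11.4 TPM (0.06). bam, a differentiation factor of early germ cells, had the smallest p of the list with a log2 fold change of -0.29 (95% interval -0.79 to 0.21), and was lowest in InR-DN replicate 2 at 13.58 TPM.

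**Figure D5:**
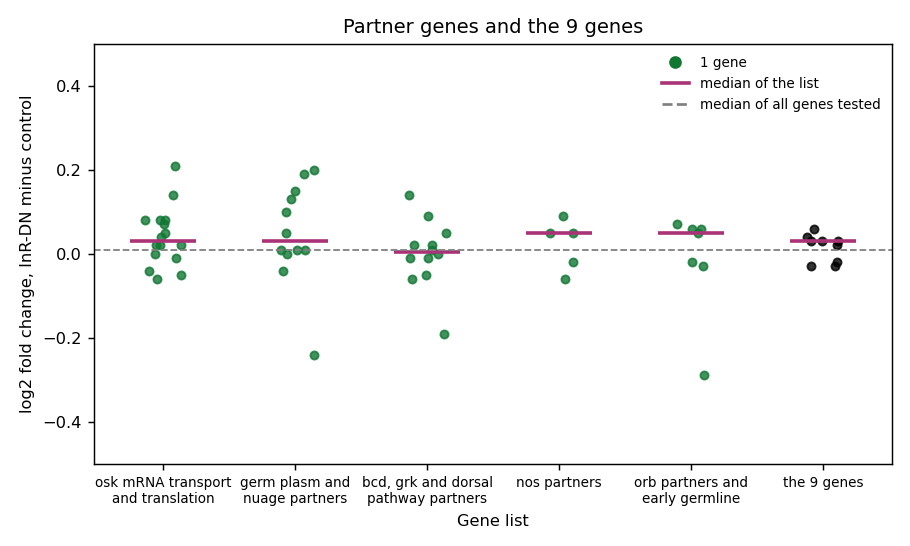
The log2 fold change (InR-DN minus control, log2(TPM + 1)) of each tested partner gene in 5 lists and of the 9 genes, with 1 point per gene, a purple line at the list's median and a dashed line at the median of all genes tested (0.01). Medians of the lists lie between 0.01 and 0.05, and the farthest points are bam (-0.29) and mael (-0.24).

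Genes whose profile over the 6 libraries was most like the mean profile of the 9 were the histone methyltransferase gene G9a (Pearson's r = 0.997), Mnn1 (0.997), pic (0.995), SuUR (0.994), a gene of underreplication in polytene chromosomes, and CG45101 (0.994), out of 8188 genes with a mean of at least 10 TPM. SuUR and CG45101 held identical values in the table and count as 1 profile. The closest to osk were CG11123 (0.996), CG11883 (0.992) and l(1)G0020 (0.987), and the closest to nos were CG34126, HP5 and Smr (0.995 to 0.996). Such likeness was common for the mean profile and for nos and rarer for osk: 1309 genes had r of at least 0.9 with the mean profile, 722 with nos and 38 with osk. Each r rests on only 6 libraries. These are descriptions over libraries that share the shifts given above.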

How the data were processed

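One table of TPM values was deposited by the authors, with a column per library per the file headers, for 15010 genes in 6 libraries. Every column summed to 1000000. Per the submitters' processing notes, TopHat and edgeR were used, with no role or version named. Build, annotation, counter and strand setting were not stated. Columns were matched to titles by group initial and number.

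Gene symbols were looked up in the BDGP6.54 annotation, which identified 14955. TPM times exon length was a whole multiple of the worth of 1 read for 14173 of these (94.8%, relative tolerance 1e-06 or 0.001 reads), among them 8 of the 9 members. For vas a length was searched for, and the shortest that gave whole reads was used. Recovered reads gave depth and counting error, which covers counting alone.

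The main fit used limma 3.58.1 (R 4.3.3) with a trend in the prior variance on log2(TPM + 1). Group was its only term, 10816 genes reached 1 TPM in at least 3 libraries, and Benjamini-Hochberg adjustment at 0.05 ran over all of them. The fit was tested on simulated data with independent noise and planted effects far larger than the differences of the 9 genes. That test cannot speak to shifts that genes share within a library or to differences as small as those seen. The members and lists (5 partner lists, 9 marker lists) were chosen with earlier results of these data known. Named genes are all members, for each partner list the 2 most abundant and the 2 with the smallest p, the 2 most abundant of each marker list, and the genes most like the members, osk or nos. Akap200, CG11779, Nsun5 and Nos were named after their values were seen. Alternatives were other pseudocounts, filters, scalings and eBayes settings, a replicate block, limma voom on recovered reads (at least 10 in at least 3 libraries, 10880 genes) and leaving out each library.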

Additional observations from a re-analysis of the deposited data

How the results depend on the processing

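None of the 9 genes passed the adjusted p in any of the 16 alternatives, and none had an unadjusted p under 0.05 in them (the lowest was 0.154, for gcl). Over all genes, limma passed 0, with 341 at an unadjusted p under 0.05. It passed 1 with a pseudocount of 0.1 and 0 to 3 with 1 library left out, and 0 with voom on recovered reads (336 unadjusted). Without InR-DN replicate 2 the unadjusted count was 937. The labels do not say whether numbers shared between groups pair the libraries. The deviations from the group means of same-numbered libraries correlated at -0.41, -0.18 and -0.13 over 10816 genes. Deviations within a group sum to 0 for each gene, so these values cannot settle the pairing. With the replicate block 0 genes passed (362 unadjusted) and 0 of the 9.

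Direction was less stable than the lack of a call. Of 144 fold changes of the 9 genes, 12 changed sign, each with 1 library left out, and none under the other settings at 2 decimals. With 1 library left out, and at 2 decimals, the range was -0.02 to 0.08 for osk, -0.05 to 0.10 for vas, -0.13 to 0.18 for gcl and -0.07 to 0.13 for stau, each below 0 only without InR-DN replicate 1. It was -0.06 to 0.03 for tud and -0.06 to 0.06 for orb, each above 0 only without InR-DN replicate 3. It was -0.22 to 0.14 for nos, above 0 without InR-DN replicate 2 or control replicate 3 (0.04). It was -0.17 to 0.28 for bcd, below 0 without InR-DN replicate 1, InR-DN replicate 3 (-0.03), control replicate 1 (-0.07) or control replicate 2 (-0.06). For grk it was 0.03 to 0.11. The cause was not tested. Depth limits grk most, at 869 reads in its lowest library.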

Other observations

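The most abundant genes of the marker lists gave these levels. In the yolk protein list they were Yp1 and Yp3, at 6162 to 9482 and 3082 to 3764.5 TPM. In the enterocyte list, the trypsin gene alphaTry lay at 4767 to 7517 TPM and the protease gene yip7 at 4070.5 to 6479.6 TPM. In the photoreceptor list, the rhodopsin gene ninaE lay at 2249.5 to 3015 TPM and the arrestin gene Arr2 at 807 to 1191 TPM. Gut progenitor genes summed to 55.59 to 72.61 TPM, led by the Notch ligand gene Dl (25.4 to 41.6 TPM) and the receptor gene N (15.7 to 18.5 TPM). Flight muscle genes summed to 974.9 to 1138 TPM, led by the myosin light chain gene Mlc2 (344 to 410.2 TPM) and the troponin gene up (274 to 347 TPM).

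Of 7 male germline and accessory gland genes in the table, 6 lay below 1 TPM in every library, among them Acp26Aa at 0.0589 to 0.225 TPM. The other was bol, a regulator of male meiosis, at 11.99 to 14.53 TPM. Of 8 zygotic segmentation genes of the embryo, 3 lay below 1 TPM in every library, and the most abundant were h at 49.3 to 61.7 TPM and kni at 3.55 to 6.06 TPM.

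None of the genes in these lists passed limma at an adjusted p of 0.05. An unadjusted p under 0.05 was reached by 2, both in the oenocyte and fat body list, and by 3.15% of all genes tested. That list summed to 7221 to 11033 TPM. Of its 3 tested genes, 1 was higher and 2 lower in the InR-DN group, at log2 fold changes from -0.36 to 0.34. Cyp4g1, an enzyme of hydrocarbon synthesis, lay lower in the InR-DN group, with a log2 fold change of -0.36 (limma, adjusted p = 1.00). The elongase gene eloF lay at 412.9 to 486.7 TPM in controls and at 314.1 to 397.4 TPM in the InR-DN group, also at -0.36 (limma, adjusted p = 1.00). The eloF groups did not overlap, which held for 6.36% of all genes tested. The gut progenitor list held such genes too, 2 of 4 tested. In that list 1 gene was higher and 3 were lower in the InR-DN group, with a median log2 fold change of -0.17.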
